A study of Mus musculus with 8 samples.

Results

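Lung RNA was examined for 9 genes of mast cells and basophils, chosen by name among the 25965 genes of the deposited table, in all 8 libraries. They were the granule proteases Mcpt4, Cma1, Cpa3 and Mcpt8, the IgE receptor subunits Fcer1a and Ms4a2, the growth factor receptor Kit, the transcription factor Gata2 and the histidine decarboxylase gene Hdc. Lungs were taken before birth at embryonic stage E18.5 and after birth at postnatal stage P1.5, from Wfdc2+/+ mice and from Wfdc2 GFP/GFP mice, with 2 animals and 2 libraries in each of the 4 groups. Wfdc2 encodes a secreted protease inhibitor of the whey acidic protein family that is made by airway epithelium. The GFP allele carries an IRES-EGFP cassette in place of part of exon 1 and the whole of exon 2, was made in TT2 embryonic stem cells, and lost its neomycin cassette by a cross to CAG-Cre mice. It is therefore a germline change present in every cell of the animal, and the controls were littermates. The values are those of whole lung, and nothing was sorted.

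Mast cells are tissue-resident cells of the haematopoietic lineage that store proteases, histamine and heparin in granules and release them when IgE bound to its receptor is crosslinked. They depend on the receptor tyrosine kinase KIT and on the zinc finger factor GATA2. Basophils are circulating granulocytes that share the IgE receptor, GATA2 and histamine synthesis with mast cells and carry a different protease, MCPT8. Kit, Gata2 and Hdc are also transcribed outside these cells, Kit and Gata2 in endothelium among others, whereas the granule proteases are closely tied to mast cells and basophils.

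The 250 bases before the RefSeq start of each of the 4 granule protease genes are shown, because these genes are closely tied to mast cells and basophils. For Mcpt8 that start lies inside the gene as deposited, so the window overlaps the first bases of the deposited gene. Sequences are from RefSeq on GRCm38.p6, read on the minus strand on which all 4 genes lie. Capitals mark the letters AGATAA or AGATAG or TGATAA or TGATAG on either strand, the core that GATA factors recognise.
Mcpt4, chr14:56062311-56062560: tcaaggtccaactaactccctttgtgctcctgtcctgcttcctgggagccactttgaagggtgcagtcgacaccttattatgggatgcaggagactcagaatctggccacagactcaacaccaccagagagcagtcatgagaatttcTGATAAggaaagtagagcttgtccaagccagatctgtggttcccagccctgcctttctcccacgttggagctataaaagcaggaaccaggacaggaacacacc
Cma1, chr14:55944676-55944925: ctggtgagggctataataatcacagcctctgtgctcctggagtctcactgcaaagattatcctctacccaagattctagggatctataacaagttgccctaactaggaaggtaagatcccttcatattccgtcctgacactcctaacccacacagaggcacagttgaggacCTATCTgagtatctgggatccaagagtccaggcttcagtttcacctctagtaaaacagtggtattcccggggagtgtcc
Cpa3, chr3:20242182-20242431: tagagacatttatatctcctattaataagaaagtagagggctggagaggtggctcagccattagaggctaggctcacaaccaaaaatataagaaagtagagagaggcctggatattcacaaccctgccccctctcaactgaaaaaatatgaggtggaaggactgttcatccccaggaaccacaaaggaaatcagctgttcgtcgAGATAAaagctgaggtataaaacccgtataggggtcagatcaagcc
Mcpt8, chr14:56085198-56085447: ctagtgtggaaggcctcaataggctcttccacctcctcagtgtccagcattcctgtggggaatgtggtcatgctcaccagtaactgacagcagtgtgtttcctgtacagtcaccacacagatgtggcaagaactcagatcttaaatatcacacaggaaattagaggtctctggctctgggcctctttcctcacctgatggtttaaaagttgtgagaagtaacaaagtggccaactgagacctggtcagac
Mcpt4, Cma1 and Cpa3 had 1 match each, ending 97, 73 and 40 bases before the start, and the Mcpt8 window had none. Windows of the same length before the start held such a match in 26.5% of the 32851 promoters of the RefSeq table. They held it in 6 of the 11 promoters of the 9 genes examined here, the others being those of Fcer1a, Ms4a2 and Hdc. Kit and Gata2 each had more than 1 promoter there, none with a match. A match of these letters is a description of the sequence and not a bound site.

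Reads per gene were recovered from the deposited log2 RPKM. The totals that these values imply were 19457647 to 37209333 reads a library. On these totals 3 reads, taken as the limit of detection, stood for 0.0806 to 0.154 RPM (reads scaled to the implied total). The largest total was that of replicate 1 of E18.5 Wfdc2 GFP/GFP. It is above the raw reads that the paper gives for either library of that group, and the reason was not tested. Wfdc2 had 8038 to 32845 reads in the Wfdc2+/+ libraries and 0 to 12 in the Wfdc2 GFP/GFP libraries. In every group, replicate 1 had 4121 to 90980 reads of the X-inactivation transcript Xist and 0 to 3 of the Y-linked Ddx3y, and replicate 2 had 1 to 13 and 972 to 2175. Replicate number and sex therefore cannot be told apart. Of the 9 genes, 7 averaged 0.05 RPKM or more across the libraries and were tested among 15627 genes. Fcer1a and Ms4a2 did not. The replicates are separate animals, but with 2 in each group the p-values rest on 4 residual degrees of freedom. Two-sided adjusted p-values are from limma's moderated test with Benjamini-Hochberg adjustment over all genes tested, and differences are in log2 RPKM.

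A pair of libraries stood apart for these genes. Replicate 1 of E18.5 Wfdc2 GFP/GFP had the lowest value of all 8 libraries for 6 of the 7 genes tested and the highest for the other, Kit. The summed level of 4 erythroid markers was also low there, at 262 RPM against 1058 to 2774 RPM in the other libraries of Wfdc2 GFP/GFP. Replicate 1 of P1.5 Wfdc2+/+ had the lowest value of the 4 libraries of its stage for 6 of the 7 genes. Genes in general were low in that library. Its median log2 RPKM over all tested genes was −0.962, the lowest of the 8, against −0.216 in replicate 2 of its group. Replicate 1 of P1.5 Wfdc2 GFP/GFP was close, at −0.953. In replicate 1 of E18.5 Wfdc2 GFP/GFP the median was 0.0219, the highest of the 8. How many of all genes were lowest in each library was not counted. Differences of the 7 genes that moved widely when one of these libraries was left out are given with and without it.

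**Figure D1:**
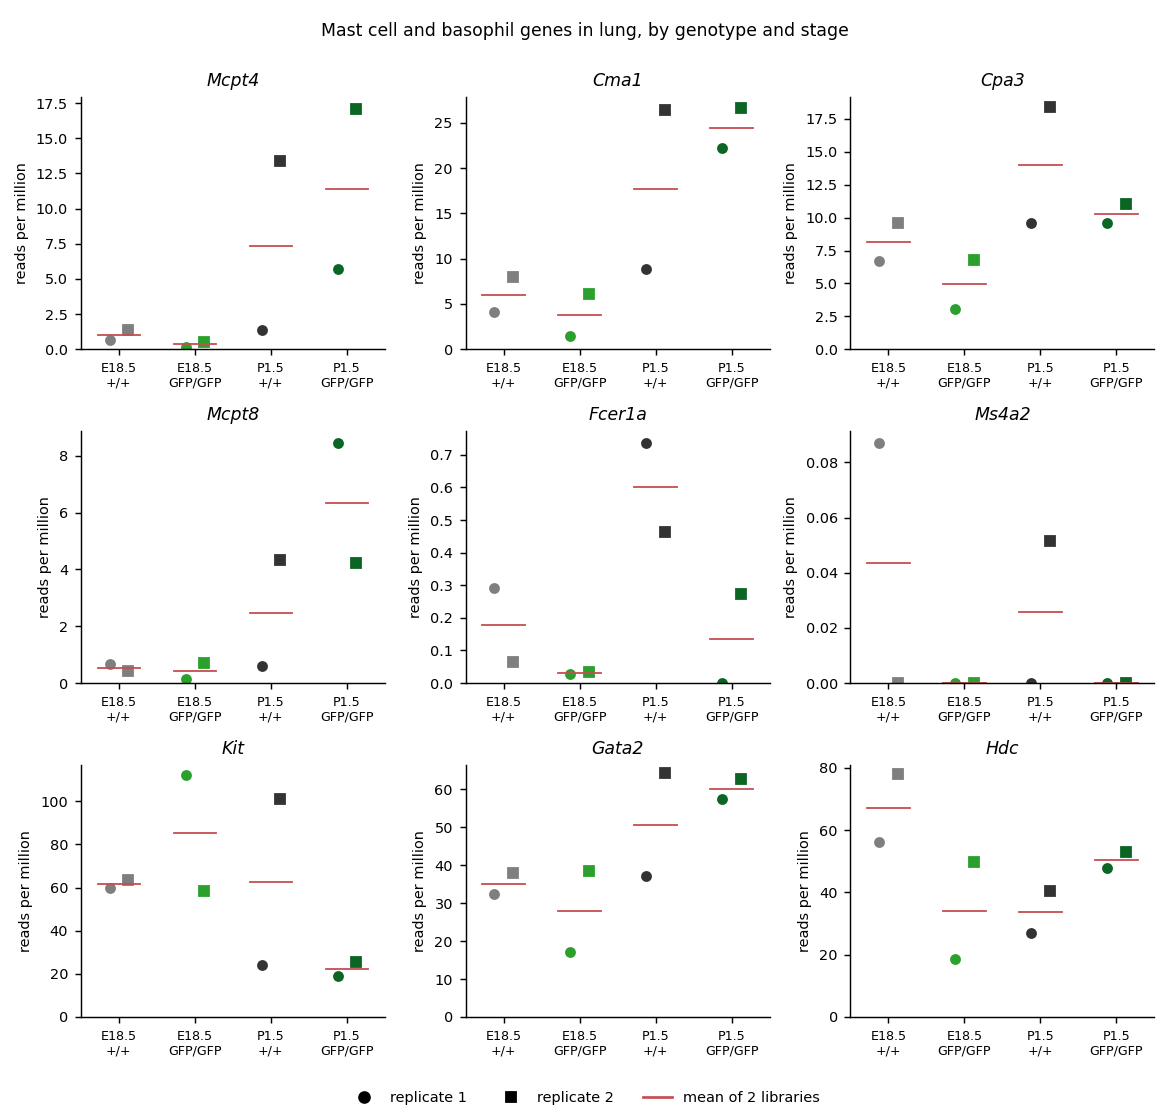
Level of each of the 9 genes in RPM (vertical axes, from 0, with a scale for each gene) in the 4 groups of 2 lungs. Circles are replicate 1, squares replicate 2 and red lines the mean of the 2 libraries. Mcpt4 and Cma1 were higher in both P1.5 libraries than in both E18.5 libraries of the same genotype, and Fcer1a and Ms4a2 lie near 0 RPM throughout.

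The order of the genes per length of exon differed between the stages. In RPM per kilobase of exon, the highest group mean at E18.5 was that of Hdc in Wfdc2+/+, at 10.5 against 5.52 for Cma1, and that of Kit in Wfdc2 GFP/GFP, at 9.59 against 3.47 for Cma1. At P1.5 Cma1 had the highest mean of the 9 genes in both genotypes, at 16.2 in Wfdc2+/+ and 22.4 in Wfdc2 GFP/GFP, followed by Gata2 at 9.38 and 11.1. Over all 8 libraries Cma1 averaged 11.9 with a range of 1.38 to 24.4, and Gata2, Hdc, Kit and Cpa3 averaged 8.05, 7.25, 6.50 and 6.16, with ranges that overlapped widely. Reads in introns count in these values, and when levels were taken per length of the whole gene, Mcpt4, at 1.96 RPKM, stood above Cpa3, at 0.352 RPKM. Per length of exon Mcpt4 had a mean of 4.54 with a range of 0.121 to 15.4, and Mcpt8 a mean of 2.45 with a range of 0.135 to 8.48. Fcer1a, at 0.237, and Ms4a2, at 0.00616, were the lowest.

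Mcpt4 encodes the main chymase of connective tissue mast cells in the mouse. Its gene spans chr14:56059744-56062310 on the minus strand (mm10). In Wfdc2+/+ lungs Mcpt4 was at 0.668 and 1.35 RPM at E18.5 and at 1.38 and 13.4 RPM at P1.5. In Wfdc2 GFP/GFP lungs it was at 0.134 and 0.547 RPM at E18.5, from 5 and 16 reads, and at 5.70 and 17.1 RPM at P1.5, from 132 and 500 reads. Both P1.5 libraries were thus above both E18.5 libraries in each genotype, although replicate 1 of P1.5 Wfdc2+/+ was only just above the higher E18.5 control. Mcpt4 rose from E18.5 to P1.5 in Wfdc2 GFP/GFP lungs by 5.19 ± 1.13 (SE) on the log2 scale, with a 95% interval of 2.57 to 7.80 (limma, adjusted p = 0.0482). It was the only one of the 7 genes to pass the threshold in any comparison. Across all genes 4.55% were called in that comparison. The corresponding difference in Wfdc2+/+ lungs was 2.18 ± 1.13 (limma, adjusted p = 0.447), and without replicate 1 of P1.5 Wfdc2+/+ it was 3.82. The 2 differences were not distinguished by the interaction of genotype and stage, at 3.01 ± 1.60 (limma, adjusted p = 0.575), which fell to 1.99 without replicate 1 of E18.5 Wfdc2 GFP/GFP and to 1.37 without replicate 1 of P1.5 Wfdc2+/+. The call lies close to the threshold, and adjusted p-values ran from 0.00245 to 0.26 over the alternatives. Without replicate 1 of E18.5 Wfdc2 GFP/GFP, the difference was 4.17 ± 1.36 with an adjusted p of 0.26 (limma). The call was also lost without replicate 1 or 2 of E18.5 Wfdc2+/+, with adjusted p-values of 0.0883 and 0.0898, and without replicate 1 or 2 of P1.5 Wfdc2 GFP/GFP, with 0.174 and 0.16 (limma). It was lost as well with log2(RPKM + 0.1), with log2(RPKM + 1), without the filter and with voom, and with log2(RPKM + 1) the difference was 2.14. In whole lung RNA, a different number of mast cells and a different amount of RNA per cell cannot be told apart, here and in what follows.

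Cma1, which encodes mast cell protease 5, lies at chr14:55941453-55944661 on the minus strand. Its levels were 4.07 and 7.96 RPM in E18.5 Wfdc2+/+, 1.5 and 6.05 RPM in E18.5 Wfdc2 GFP/GFP, 8.89 and 26.4 RPM in P1.5 Wfdc2+/+, and 22.2 and 26.6 RPM in P1.5 Wfdc2 GFP/GFP. All P1.5 values lay above all E18.5 values, and the genotypes overlapped at both stages. The stage difference was 3.01 ± 0.74 in Wfdc2 GFP/GFP lungs (limma, adjusted p = 0.0557) and 1.43 ± 0.74 in Wfdc2+/+ lungs (limma, adjusted p = 0.448). Cma1 missed the threshold by a small margin, with an interval in Wfdc2 GFP/GFP lungs of 1.29 to 4.73. It passed in that comparison with the replicate block, the filter of 0.5 RPKM, median centring, only the libraries compared, and without replicate 2 of E18.5 Wfdc2 GFP/GFP or either replicate of P1.5 Wfdc2+/+. That difference was 2.00 without replicate 1 of E18.5 Wfdc2 GFP/GFP, and the one in Wfdc2+/+ was 2.22 without replicate 1 of P1.5 Wfdc2+/+ and 0.64 without replicate 2.

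Cpa3 encodes the carboxypeptidase that is stored with the chymases, and basophils carry some of it as well. The gene spans chr3:20215617-20242181 on the minus strand. Cpa3 varied less than the chymases, with 6.74 and 9.56 RPM in E18.5 Wfdc2+/+, 3.04 and 6.80 RPM in E18.5 Wfdc2 GFP/GFP, 9.58 and 18.4 RPM in P1.5 Wfdc2+/+, and 9.58 and 11 RPM in P1.5 Wfdc2 GFP/GFP. The stages did not overlap within either genotype, but in Wfdc2+/+ only by a near tie. Replicate 1 of P1.5 was at 9.58 RPM from 208 reads and replicate 2 of E18.5 at 9.56 RPM from 298 reads. The stage difference was 1.18 ± 0.53 in Wfdc2 GFP/GFP (limma, adjusted p = 0.155) and 0.73 ± 0.53 in Wfdc2+/+ (limma, adjusted p = 0.479), neither past the threshold. The former was 0.59 without replicate 1 of E18.5 Wfdc2 GFP/GFP, and the latter 1.20 without replicate 1 of P1.5 Wfdc2+/+ and 0.26 without replicate 2.

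Mcpt8 encodes a granzyme-like protease of basophils and lies at chr14:56082166-56085216 on the minus strand. It was at 0.668 and 0.417 RPM in E18.5 Wfdc2+/+, from 23 and 13 reads, and at 0.134 and 0.718 RPM in E18.5 Wfdc2 GFP/GFP, from 5 and 21 reads. At P1.5 it was at 0.599 and 4.32 RPM in Wfdc2+/+ and at 8.46 and 4.24 RPM in Wfdc2 GFP/GFP. Replicate 1 of P1.5 Wfdc2+/+ was thus at the level of the E18.5 lungs, and the other 3 P1.5 lungs were above all 4 E18.5 lungs. The stage difference in Wfdc2 GFP/GFP was 4.27 ± 1.05 (limma, adjusted p = 0.0557), with an interval of 1.83 to 6.70, and that in Wfdc2+/+ was 1.61 ± 1.05 (limma, adjusted p = 0.451). The former was 3.06 when replicate 1 of E18.5 Wfdc2 GFP/GFP was left out. The latter was 3.03 without replicate 1 of P1.5 Wfdc2+/+ and 0.18 without replicate 2. Mcpt8 passed the threshold in Wfdc2 GFP/GFP with the filter of 0.5 RPKM, with median centring, with quantile normalization, with only the libraries compared, and without replicate 2 of E18.5 Wfdc2 GFP/GFP or either replicate of P1.5 Wfdc2+/+.

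Both IgE receptor subunits were near the limit of detection. Fcer1a, at chr1:173221271-173227229 on the minus strand, encodes the chain that binds IgE. It had 10 and 2 reads in E18.5 Wfdc2+/+, 1 and 1 in E18.5 Wfdc2 GFP/GFP, 16 and 9 in P1.5 Wfdc2+/+, and 0 and 8 in P1.5 Wfdc2 GFP/GFP. The 0 reads among 23163504 allow a level of up to 0.130 RPM, counting error only. The Wfdc2+/+ lungs were above the Wfdc2 GFP/GFP lungs at each stage without overlap, on these few reads. Of the genes tested, which leave out Fcer1a, 9.46% were lower without overlap in Wfdc2 GFP/GFP at E18.5 and 26.9% at P1.5. At E18.5 replicate 1 of Wfdc2+/+, with 10 reads, was the only lung above the limit of 3 reads. No order of the genotypes is read from that stage. When all 25965 genes were fitted without the filter, the adjusted p-values of limma for Fcer1a were 0.999 for genotype at E18.5 and 0.514 for genotype at P1.5. Ms4a2, at chr19:11616957-11623719 on the minus strand, encodes the signalling beta chain. It had 3 reads in replicate 1 of E18.5 Wfdc2+/+, 1 in replicate 2 of P1.5 Wfdc2+/+ and 0 in the other 6 libraries, so no difference was detectable at this depth. Fcer1g, the gene of the common gamma chain, which is shared with other immune receptors, was at 10.6 to 50.3 RPM.

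Kit encodes the receptor for stem cell factor and spans 81807 bases at chr5:75574916-75656722 on the plus strand. Its levels were 59.9 and 63.5 RPM in E18.5 Wfdc2+/+, 112 and 58.5 RPM in E18.5 Wfdc2 GFP/GFP, 23.9 and 101 RPM in P1.5 Wfdc2+/+, and 18.9 and 25.4 RPM in P1.5 Wfdc2 GFP/GFP. The P1.5 lungs, apart from replicate 2 of Wfdc2+/+, were below every other lung. In Wfdc2 GFP/GFP the stage difference was −1.89 ± 0.67 (limma, adjusted p = 0.0958), opposite in sign to that of the granule proteases, and in Wfdc2+/+ it was −0.33 ± 0.67 (limma, adjusted p = 0.802). Without replicate 1 of P1.5 Wfdc2+/+ the latter turned to 0.71. The former was −1.42 without replicate 1 of E18.5 Wfdc2 GFP/GFP, and it passed the threshold with only the libraries compared and without either replicate of P1.5 Wfdc2+/+.

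**Figure D2:**
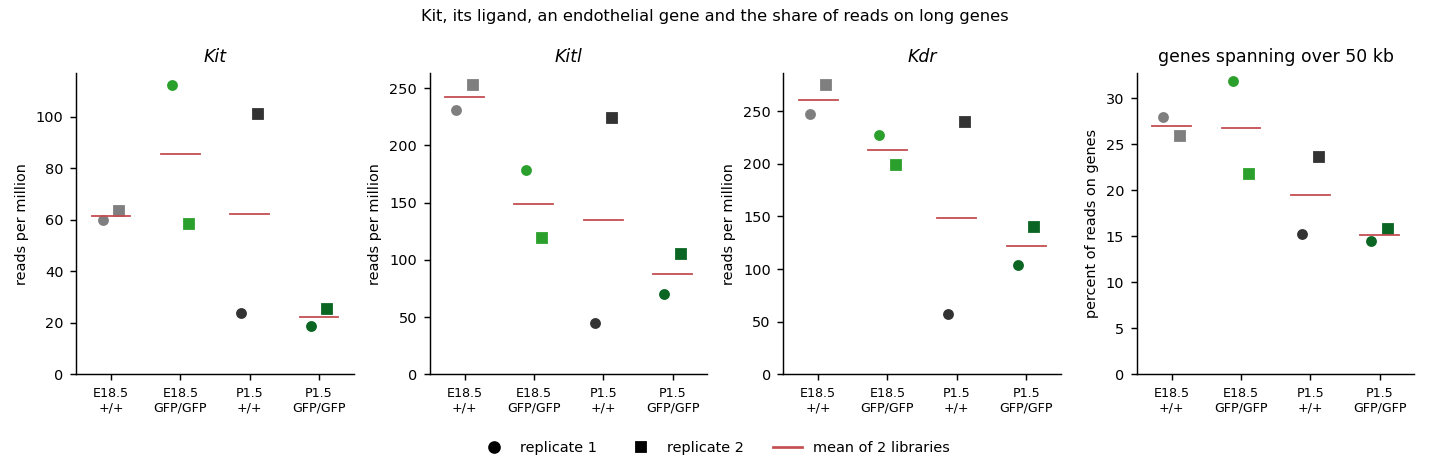
Kit, its ligand gene Kitl and the endothelial gene Kdr in RPM (first 3 panels), and the percentage of reads on genes that fell on genes spanning over 50 kb (right panel), for the 4 groups. Circles are replicate 1, squares replicate 2 and red lines the mean. In the right panel the 3 P1.5 lungs that were low in Kit had 14.5% to 15.8% of their reads on such genes, and the other 5 lungs 21.7% to 31.8%.

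Values of other measures are given beside Kit, and their part in its level was not tested. Genes spanning over 50 kb took 15.2% of the reads on genes in replicate 1 of P1.5 Wfdc2+/+ and 14.5% and 15.8% in P1.5 Wfdc2 GFP/GFP, against 23.6% in replicate 2 of P1.5 Wfdc2+/+ and 21.7% to 31.8% at E18.5. The summed level of 6 endothelial markers (Pecam1, Cdh5, Kdr, Tek, Emcn and Tie1) was 1691 to 1866 RPM in E18.5 Wfdc2+/+, 1470.4 to 1769 RPM in E18.5 Wfdc2 GFP/GFP, 629 to 1770.2 RPM in P1.5 Wfdc2+/+ and 1089.9 to 1420.3 RPM in P1.5 Wfdc2 GFP/GFP. The 3 lungs low in Kit had the 3 lowest sums, but the order was not kept among the others. Replicate 1 of E18.5 Wfdc2 GFP/GFP, the highest in Kit at 112 RPM, had the lowest endothelial sum of its stage, 1470.4 RPM, close to the 1420.3 RPM of replicate 2 of P1.5 Wfdc2 GFP/GFP, where Kit was at 25.4 RPM. None of the 6 markers passed the threshold between the stages in either genotype. Their differences in Wfdc2 GFP/GFP ran from −0.97 for Cdh5 to −0.04 for Tie1, where the median of all genes was −0.46, and Tie1, Pecam1, Emcn and Tek turned to 0.64, 0.60, 0.56 and 0.35 with median centring. Kitl, which encodes the KIT ligand and also spans over 50 kb, was at 231 and 253 RPM in E18.5 Wfdc2+/+, 178 and 119 RPM in E18.5 Wfdc2 GFP/GFP, 45.0 and 224 RPM in P1.5 Wfdc2+/+, and 70.3 and 105 RPM in P1.5 Wfdc2 GFP/GFP. The 3 P1.5 lungs low in Kit were also the 3 lowest in Kitl.

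Gata2 lies at chr6:88193891-88207030 on the plus strand. Its levels were 32.4 and 37.9 RPM in E18.5 Wfdc2+/+, 17.1 and 38.6 RPM in E18.5 Wfdc2 GFP/GFP, 37.1 and 64.2 RPM in P1.5 Wfdc2+/+, and 57.5 and 62.6 RPM in P1.5 Wfdc2 GFP/GFP. The stages were separate in Wfdc2 GFP/GFP and overlapped in Wfdc2+/+. The stage differences were 1.22 ± 0.45 (limma, adjusted p = 0.102) and 0.48 ± 0.45 (limma, adjusted p = 0.569). Without replicate 1 of E18.5 Wfdc2 GFP/GFP the former was 0.64, and it passed the threshold without replicate 2 of that group and with median centring. The latter was 0.87 without replicate 1 of P1.5 Wfdc2+/+ and 0.080 without replicate 2.

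Hdc, which encodes the enzyme that makes histamine, lies at chr2:126593667-126619299 on the minus strand and showed another order of the groups than the granule genes. It was at 56.2 and 78.1 RPM in E18.5 Wfdc2+/+, 18.7 and 49.6 RPM in E18.5 Wfdc2 GFP/GFP, 26.8 and 40.4 RPM in P1.5 Wfdc2+/+, and 47.7 and 53.1 RPM in P1.5 Wfdc2 GFP/GFP. Wfdc2 GFP/GFP lungs were below Wfdc2+/+ lungs at E18.5 and above them at P1.5, without overlap at either stage. The genotype difference was −1.12 ± 0.49 at E18.5 and 0.61 ± 0.49 at P1.5 (limma, adjusted p = 0.9998 and 0.704). The interaction was 1.73 ± 0.70, with an unadjusted p of 0.0385 in limma and an adjusted p of 0.453, and so failed the correction. It was 1.03 without replicate 1 of E18.5 Wfdc2 GFP/GFP.

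**Figure D3:**
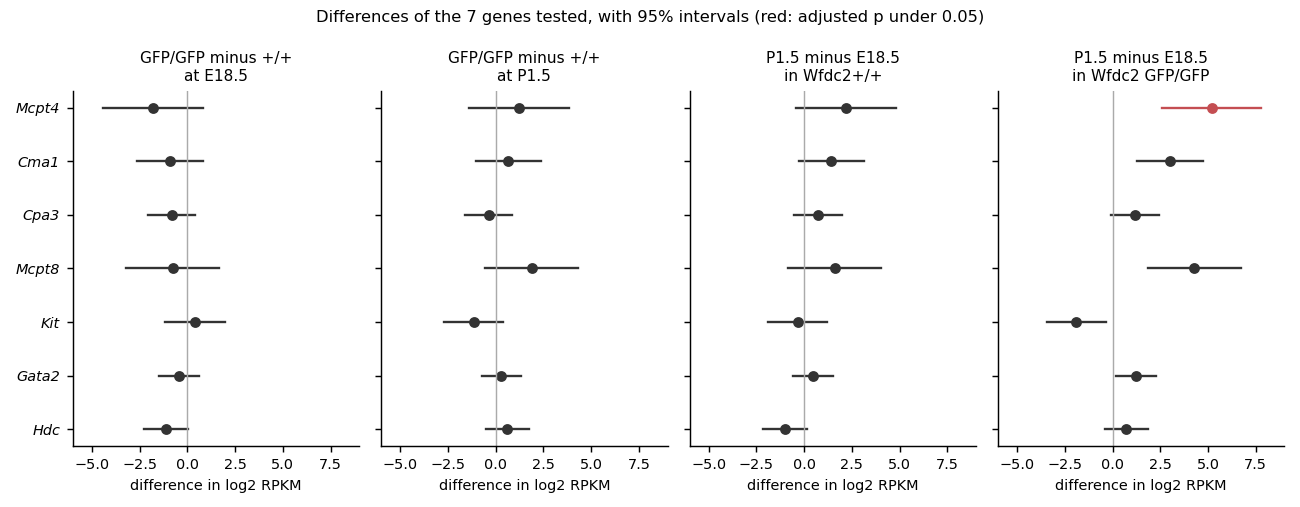
Differences in log2 RPKM (horizontal axes) of the 7 genes tested, as points with 95% intervals from limma, between the genotypes at each stage (left pair of panels) and between the stages in each genotype (right pair). The red point marks Mcpt4, at 5.19 in Wfdc2 GFP/GFP between the stages, the only difference with an adjusted p under 0.05.

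Between the genotypes, 0 of the 7 genes passed the threshold at P1.5, where 0.0128% of all genes did, and 0 at E18.5, where 0.0192% did. None of the 7 had an unadjusted p under 0.05 in limma in either comparison, against 10.9% of all genes at P1.5 and 4.37% at E18.5. At P1.5 the differences of Wfdc2 GFP/GFP from Wfdc2+/+ were 1.90 ± 1.05 for Mcpt8, 1.20 ± 1.13 for Mcpt4, 0.66 ± 0.74 for Cma1, 0.30 ± 0.45 for Gata2, −0.37 ± 0.53 for Cpa3 and −1.16 ± 0.67 for Kit. The 95% intervals ran as far as 4.33 for Mcpt8 and 3.81 for Mcpt4, so that large differences were not detectable with 2 lungs a group. Without replicate 1 of P1.5 Wfdc2+/+, Mcpt4, Cma1 and Gata2 turned to −0.44, −0.12 and −0.097, Mcpt8 and Hdc were at 0.47 and 0.32, and Cpa3 and Kit at −0.84 and −2.20. Without replicate 2 of that group, Cpa3 turned to 0.10, Mcpt8 was 3.32, Mcpt4 2.84 and Kit −0.12. Both P1.5 Wfdc2 GFP/GFP lungs were above both controls for 1 of the 7 genes (Hdc), against 12.6% of all genes, and below them for 0, against 26.9%.

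At E18.5, 6 of the 7 genes were lower on average in Wfdc2 GFP/GFP than in Wfdc2+/+, from −0.45 for Gata2 to −1.81 for Mcpt4, and Kit was higher by 0.39. Mcpt4 and Hdc were lower without overlap, 2 of the 7, against 9.46% of all genes, and 0 were higher without overlap, against 26.5%. Without replicate 1 of Wfdc2 GFP/GFP, Cma1, Mcpt8 and Gata2 turned to 0.090, 0.44 and 0.14 and Kit to −0.076, and Mcpt4 was at −0.79, Hdc at −0.42 and Cpa3 at −0.24.

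Between the stages, 1 of the 7 genes passed the threshold in Wfdc2 GFP/GFP and 0 in Wfdc2+/+, where 0.0576% of all genes passed. In Wfdc2 GFP/GFP 5 of the 7 had an unadjusted p under 0.05 in limma, against 35.6% of all genes, and in Wfdc2+/+ 0, against 11.8%. Both P1.5 lungs were above both E18.5 lungs for 5 of the 7 in Wfdc2 GFP/GFP (Mcpt4, Cma1, Cpa3, Mcpt8 and Gata2), against 18.7% of all genes, and below them for Kit, against 48.5%. In Wfdc2+/+ they were above for Mcpt4, Cma1 and Cpa3, 3 of the 7, against 27.4%, and below for Hdc, against 28.2%. For Mcpt4 and Cpa3 replicate 1 of P1.5 Wfdc2+/+ was only just above the higher E18.5 control. The median difference of the 7 was 1.22 in Wfdc2 GFP/GFP and 0.73 in Wfdc2+/+, where that of all 15627 genes was −0.46 and −0.15. For the interaction of genotype and stage 0 of the 7 genes and 0% of all genes passed, with 1 of the 7 and 10.2% of all genes at an unadjusted p under 0.05 in limma. The comparisons share groups, so their values are not independent of one another. Of the 711 genes called between the stages in Wfdc2 GFP/GFP 252 were higher and 459 lower, and after centring each library on its median 849 were higher and 430 lower. The direction of each of the 7 genes was the same under median centring and quantile normalization in all 5 comparisons.

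**Figure D4:**
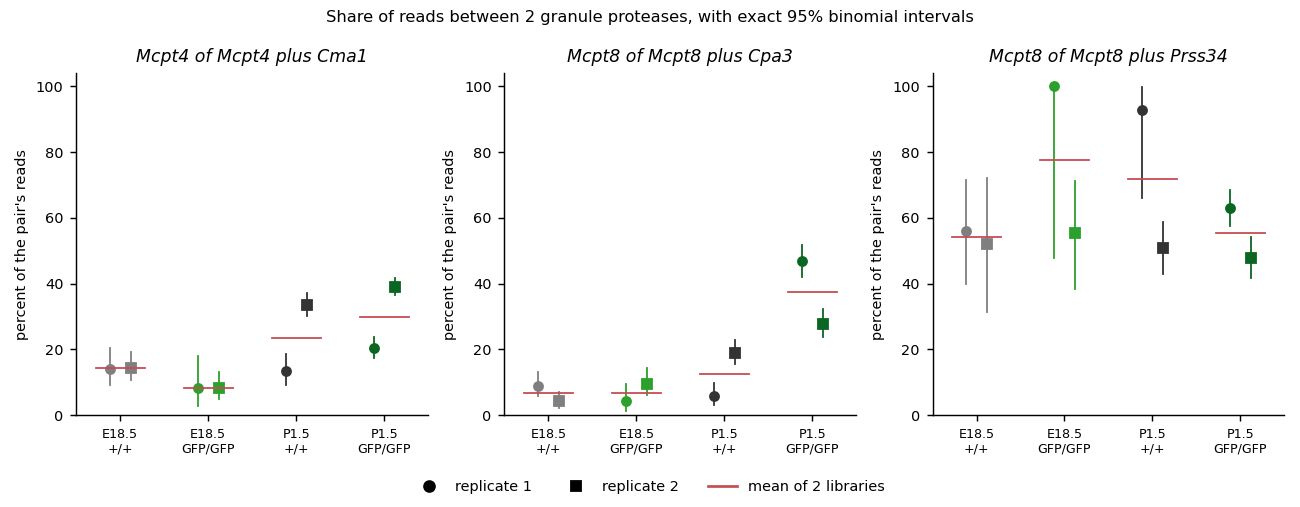
Share of reads of the first gene in each pair of granule protease genes, as a percentage of the reads of both (vertical axes, 0 to 100), with exact 95% binomial intervals as vertical lines. Circles are replicate 1, squares replicate 2 and red lines the mean of 2 libraries. The share of Mcpt4 against Cma1 was 8.20% and 8.29% in E18.5 Wfdc2 GFP/GFP and 20.4% and 39.1% at P1.5.

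The proportions between the protease genes differed among the lungs as well. Within a library, the ratio of reads of 2 genes does not depend on the total of that library. Of the reads on Mcpt4 and Cma1, the 2 chymase genes, Mcpt4 took 14.1% and 14.5% in E18.5 Wfdc2+/+ and 8.20% and 8.29% in E18.5 Wfdc2 GFP/GFP, with exact 95% intervals (Clopper-Pearson) that together spanned 2.72% to 20.4%. At P1.5 it took 13.5% (9.26% to 18.6%) and 33.6% (30.3% to 37.0%) in Wfdc2+/+, and 20.4% (17.4% to 23.8%) and 39.1% (36.4% to 41.9%) in Wfdc2 GFP/GFP. The 2 lungs of each P1.5 group differed by more than counting error, and 3 of the 4 had a larger share than any E18.5 lung. Such intervals cover counting error only.

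Of the reads on Mcpt8 and Cpa3, Mcpt8 took 4.18% to 9.55% in the 4 E18.5 lungs and 5.88% in replicate 1 of P1.5 Wfdc2+/+. In replicate 2 of that group it took 19.0% (15.5% to 23.0%). In P1.5 Wfdc2 GFP/GFP it took 46.9% (42.0% to 51.8%) and 27.8% (23.7% to 32.2%), the 2 highest shares of the 8 lungs. Reads in introns count in this share, and Cpa3 spans 26565 bases with 1517 in exons, against 3051 with 998 for Mcpt8. The part of unspliced RNA in the share was not tested. Prss34, the gene of another basophil protease on chromosome 17, was chosen for comparison after its values were seen. It had 18 and 12 reads in E18.5 Wfdc2+/+, 0 and 17 in E18.5 Wfdc2 GFP/GFP, 1 and 81 in P1.5 Wfdc2+/+, and 115 and 135 in P1.5 Wfdc2 GFP/GFP. The 3 lungs with the most Mcpt8 reads were those with the most Prss34 reads. In those 3, Mcpt8 took 50.9%, 63.0% and 47.9% of the reads of the pair. The 2 lungs with 0 and 1 Prss34 reads were the libraries that stood apart for the other genes, with 5 and 13 reads of Mcpt8. Cd200r3, a basophil surface receptor, was at 0.274 to 1.75 RPM, highest in replicate 2 of P1.5 Wfdc2+/+.

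Cma1, Mcpt4 and Mcpt8 lie together in the chymase locus of chromosome 14. Of 15 genes of that locus examined, 6 were tested, and Cma2, Mcpt1, Mcpt9, Gzmd, Gzme, Gzmf, Gzmg and Gzmn had at most 3 reads in each library. Of the 36-base windows of Mcpt4 transcripts 9.41% occur in Cma2, Mcpt1 or Mcpt9 as well, and for Cma1 9.10% occur in Gm48934, so that part of these reads is uncertain. Mcpt8 and Cpa3 shared none with another gene. Gzmb, a granzyme of cytotoxic lymphocytes in the same locus, had the opposite order of stages to the chymases. It was at 3.08 to 8.10 RPM in the 4 E18.5 lungs and at 0.0461 to 1.04 RPM in the 4 P1.5 lungs, without overlap. The stage differences of Gzmb were −3.57 ± 1.18 in Wfdc2 GFP/GFP (limma, adjusted p = 0.0834) and −4.53 ± 1.18 in Wfdc2+/+ (limma, adjusted p = 0.224).

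A further 55 genes of mast cells and basophils were read from 5 lists, covering granule proteases and proteoglycan, receptors and signalling, mediator synthesis and storage, lineage transcription factors, and growth factors and alarmins. Of these, 37 were tested, and Mcpt1, Mcpt9, Il9r, Il3, Il5 and Il9 had at most 3 reads in each library. In Wfdc2 GFP/GFP 3 of the 37 rose from E18.5 to P1.5 and 0 fell, and in each of the other 4 comparisons 0 of the 37 passed. Of all genes 4.55% were called in that comparison, 252 higher and 459 lower, and 0 of all genes were called without replicate 1 of E18.5 Wfdc2 GFP/GFP or replicate 1 of P1.5 Wfdc2 GFP/GFP. The median stage difference of the 37 in Wfdc2 GFP/GFP was 0.35, against −0.46 for all genes. Tpsb2, the gene of the mast cell tryptase MCPT6, rose from 2.74 and 6.60 RPM to 24.3 and 33.1 RPM, by 2.74 ± 0.50 on the log2 scale (limma, adjusted p = 0.0398). In Wfdc2+/+ Tpsb2 was at 4.56 and 9.30 RPM at E18.5 and at 27.3 and 28 RPM at P1.5, a difference of 2.08 ± 0.50 (limma, adjusted p = 0.199). Both P1.5 controls thus lay between the P1.5 Wfdc2 GFP/GFP lungs, the replicate in which the chymases were low included. Ltc4s, which encodes leukotriene C4 synthase, rose from 0.538 and 2.74 RPM to 15.5 and 15.5 RPM in Wfdc2 GFP/GFP, by 3.68 ± 0.71 (limma, adjusted p = 0.0427). In Wfdc2+/+ it was at 1.86 and 2.05 RPM at E18.5 and at 15.4 and 7.04 RPM at P1.5, a difference of 2.41 ± 0.71 (limma, adjusted p = 0.294). Lat, a signalling adaptor of T cells and mast cells, rose from 1.24 and 1.40 RPM to 6.86 and 9.33 RPM, by 2.60 ± 0.48 (limma, adjusted p = 0.0405) in Wfdc2 GFP/GFP. In Wfdc2+/+ Lat was at 0.494 and 1.15 RPM at E18.5 and at 3.87 and 3.34 RPM at P1.5, a difference of 2.25 ± 0.48 (limma, adjusted p = 0.155). The interactions of Tpsb2, Ltc4s and Lat were 0.65, 1.26 and 0.35, with adjusted p-values in limma of 0.809, 0.734 and 0.872. The calls of these 3 genes were lost without either replicate of E18.5 Wfdc2+/+, without the filter, with voom, without either replicate of P1.5 Wfdc2 GFP/GFP and without replicate 1 of E18.5 Wfdc2 GFP/GFP, and those of Ltc4s and Lat with the replicate block as well. In the fit that left out replicate 1 of E18.5 Wfdc2 GFP/GFP, the adjusted p-values in limma were 0.224, 0.19 and 0.23, and the difference of Ltc4s was 2.50.

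The second tryptase gene, Tpsab1, was singled out after its values were seen. It was at 29.6 RPM in replicate 1 of P1.5 Wfdc2+/+, from 642 reads, and at 0.145 to 1.81 RPM in the other 7 lungs, from 5 to 53 reads. It took 52.0% (49.2% to 54.8%) of the reads of Tpsab1 and Tpsb2 in that lung and 2.77% to 6.42% in the others. Of its 36-base windows 0.185% are shared with Tpsb2.

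Among the most abundant genes of the lists, Srgn, the proteoglycan of secretory granules, was at 24.5 to 131 RPM, and Ndst2, which encodes an enzyme of heparin synthesis, at 10.1 to 39.2 RPM. The receptor and signalling genes Lyn, Rab27b and Il3ra were at 29.9 to 121, 16.4 to 71.9 and 12.8 to 74.4 RPM. The mediator genes Ptgs1 and Alox5ap, which serve prostaglandin and leukotriene synthesis, were at 70.5 to 184 and 7.82 to 43.9 RPM. Of the 8 lineage transcription factor genes tested 0 passed in any comparison, and Cebpa, Stat5b and Runx1 were at 93.4 to 201, 13.7 to 60.5 and 25.5 to 34.3 RPM. The alarmin genes Il33 and Tslp, whose products act on mast cells and basophils, were at 18.4 to 52.4 and 6.19 to 12 RPM.

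Some markers of other cells changed along with the granule genes, and their part in the results was not tested. In Wfdc2 GFP/GFP, where 4.55% of all genes were called, 5 of 7 neutrophil and precursor markers rose from E18.5 to P1.5 (S100a8, S100a9, Ngp, Camp and Ltf), as did 3 of 5 megakaryocyte and platelet markers (Pf4, Itga2b and Gp9). In Wfdc2+/+, where 0.0576% of all genes were called, 1 of 7 (Ngp) and 0 of 5 passed. None of the calls in Wfdc2 GFP/GFP held without replicate 1 of E18.5 Wfdc2 GFP/GFP or replicate 1 of P1.5 Wfdc2 GFP/GFP. The summed level of the neutrophil markers was 50.6 to 81.6 RPM in the E18.5 lungs and 623 to 1757 RPM in the P1.5 lungs. That of the platelet markers was 24.4 to 48.5 RPM at E18.5 and 88.4 to 117 RPM at P1.5. Of 6 lung epithelial markers 1, the club cell gene Scgb1a1, rose in Wfdc2 GFP/GFP. The epithelial markers summed to 8294 to 23511 RPM at E18.5 and to 34804 to 76472 RPM at P1.5. Most of that sum is Sftpc, which averaged 29964.5 RPM over the 8 libraries. Of the 6 markers, 5 were higher and 1 lower on average at P1.5 in Wfdc2 GFP/GFP, and 3 were higher and 3 lower in Wfdc2+/+. Of 4 eosinophil markers Epx was at 0 reads in each library, and the 4 summed to 0.257 to 0.513 RPM at E18.5 and to 0.461 to 3.39 RPM at P1.5. Another of them, Prg2, which encodes the major basic protein, had 2 and 0 reads in E18.5 Wfdc2+/+, 2 and 3 in E18.5 Wfdc2 GFP/GFP, 5 and 1 in P1.5 Wfdc2+/+, and 29 and 50 in P1.5 Wfdc2 GFP/GFP. Prg2 passed the threshold between the stages in Wfdc2 GFP/GFP (limma, adjusted p = 0.0405), from a group at or under the limit of detection. Between the genotypes at P1.5 its unadjusted p in limma was 0.00153 and its adjusted p 0.237. The 4 melanocyte markers, another lineage that uses Kit, summed to 1.03 to 2.53 RPM.

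Genes with the most similar pattern were sought by the root mean square difference of log2 RPKM over the 8 libraries, after each gene was centred on its own mean, as a description with no test. For Cpa3 the nearest were St6galnac5 (0.16), Rnase4 (0.17), Vmn1r65 (0.21), Cyp2f2 (0.22) and Tmem163 (0.23). Gata2 ranked 20 with 0.29, and the granule genes Cma1, Mcpt8 and Mcpt4 were farther away at 0.79, 1.46 and 1.68. The measure counts the size of changes as well as their direction. A gene that varies more than Cpa3 can therefore lie far away even where it moves the same way. For Mcpt8 they were C4b (0.67), Trem3 (0.73), Itgax (0.79), H2-Ab1 (0.79) and Ly6f (0.80). Cma1 ranked 9 with 0.84, Mcpt4 ranked 32 with 0.98 and Prss34 ranked 277 with 1.29.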

How the data were processed

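Total RNA of whole mouse lung was sequenced from strand-marked libraries (NEBNext Ultra Directional kit). The paper names an Illumina HiSeq or GAIIx as the sequencer and does not say which library was run on which. A difference of sequencer between the groups was therefore not checked. The submitters' processing notes name CASAVA 1.8, Trim Galore 0.4.0, TopHat2 2.1.1 and mm10. The deposited values are log2 RPKM made by the authors in SeqMonk, and use of strand in counting is not given in the sources used here. Their kilobases count introns as well as exons, and 0.9 read stands in for no reads. Whole reads were recovered within 0.02 for 99.86% to 99.97% of values, with implied totals of 19457647 to 37209333 reads a library. Groups follow the labels.

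The log2 RPKM were tested as deposited with limma 3.58.1 in R 4.3.3 (1 mean per group, trend in the prior spread, 4 residual degrees of freedom) for the 15627 genes that averaged 0.05 RPKM or more. P-values were adjusted over all of them by the Benjamini-Hochberg method at 0.05. The code of the fit was run on simulated reads with planted changes larger than most differences given here. That run does not show how well smaller differences are found in these lungs. Alternatives were pseudocounts of 0.1 and 1 RPKM, a filter of 0.5 RPKM or none, quantile normalization, centring on the median, only the libraries compared, a replicate block, voom on recovered reads, and each library left out. Gene ends were compared with GENCODE M21. Scripts used Python 3.11.15.

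The 9 genes and the lists were chosen with earlier results of these data known. Named are the 9 genes, genes of the mast cell, basophil and chymase locus lists called in any comparison or with at most 3 reads in every library, up to 3 a list with the largest level, and the 5 genes nearest to Cpa3 and Mcpt8. Lists of other cells are given by counts or sums. Not described above are 5 dendritic cell genes, 2 of them tested, and 5 group 2 innate lymphoid cell genes, 3 of them tested. In these lists, and among the erythroid and melanocyte markers, 0 genes passed the threshold in any comparison. Prss34, Tpsab1, Cd200r3, Fcer1g and the called markers of other cells were added after their values were seen.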

Additional observations from a re-analysis of the deposited data

Results flagged for a closer look

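Hdc and Ndst2 differed between the genotypes in opposite directions at the 2 stages, with every library of a genotype on the same side. Of all genes, 9.46% were lower and 26.5% higher without overlap in Wfdc2 GFP/GFP at E18.5. At P1.5 12.6% were higher and 26.9% lower, so the directions of Ndst2 were the commoner ones at both stages. The share of all genes that changed direction in this way was not counted. For Hdc the genotype difference at P1.5 minus that at E18.5 was 1.73 on the log2 scale, with an adjusted p of 0.453 for the interaction in limma, and it ran from 1.03 to 2.44 when single libraries were left out. For Ndst2, which had 23.8 and 26.5 RPM in E18.5 Wfdc2+/+ against 36.5 and 39.2 RPM in E18.5 Wfdc2 GFP/GFP, and 19.8 and 30.9 RPM against 10.1 and 19.7 RPM at P1.5, it was −1.40, with an adjusted p of 0.449. Neither passed the threshold after adjustment over all genes.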

How the results depend on the processing

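In 4 of the 5 comparisons 0 of the 7 genes were called under every alternative that was run. Between the stages in Wfdc2 GFP/GFP the number called, 1, was 0 with a pseudocount of 0.1 or 1 RPKM, without the filter and with voom. It was 3 with a mean of at least 0.5 RPKM, 4 with median centring, 2 with quantile normalization, 4 with the libraries of the contrast alone, and 0 to 4 when single libraries were left out. Leaving out replicate 1 of E18.5 Wfdc2 GFP/GFP, either E18.5 Wfdc2+/+ library or either P1.5 Wfdc2 GFP/GFP library gave 0. A group left with 1 library is assumed to vary like the other groups. The cause of these changes was not tested.

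The labels do not say that a replicate number marks a litter, so the numbers were not taken as pairs. Deviations of same-numbered libraries correlated between the genotypes at 0.23 at E18.5 and 0.21 at P1.5. Without genes on X and Y these correlations were 0.17 and 0.19. Between the stages they were −0.02 in Wfdc2+/+ and −0.01 in Wfdc2 GFP/GFP, which does not bear on pairs within a stage. With the replicate block 2 genes, Mcpt4 and Cma1, were called between the stages in Wfdc2 GFP/GFP. In the other comparisons 0 were called. Of all genes 125 were called between the stages in Wfdc2 GFP/GFP, in place of 711.

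Over all genes the calls between the stages in Wfdc2 GFP/GFP numbered 0 to 4874, in Wfdc2+/+ 0 to 2166 against 9, for genotype at P1.5 0 to 24 against 2, for genotype at E18.5 0 to 22 against 3, and for the interaction 0 to 2 against 0. Of the differences of single genes under alternatives, 11 turned in sign, each when 1 library was left out, 19 passed the threshold newly, 9 lost it and 544 kept direction and side. For these results the values with single libraries left out ran from −0.44 to 2.84 (Mcpt4), −0.12 to 1.45 (Cma1), −0.84 to 0.10 (Cpa3) and −0.097 to 0.69 (Gata2) for genotype at P1.5. For genotype at E18.5 they ran from −1.92 to 0.090 (Cma1), −1.97 to 0.44 (Mcpt8), −0.076 to 0.87 (Kit) and −1.03 to 0.14 (Gata2). They ran from −1.37 to 0.71 for Kit between the stages in Wfdc2+/+ and from −0.13 to 1.03 for the interaction of Cpa3. Counts of 5 to 23 reads for Mcpt4 and Mcpt8 in several E18.5 libraries and 0 to 16 for Fcer1a limit these genes.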
